A study of Rattus with 12 samples.

Results

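C3, Cfb, C1s, C1r, C2 and Serping1 are 6 genes of the complement cascade. They were picked by symbol from the 17337 gene symbols of the count table, with earlier results of the same cultures in view, among them the place of C3 as the gene with the smallest p of all genes in high dose vs. untreated. All 6 passed the filter on low counts, as did 12271 gene symbols in all. Values against untreated cultures are therefore given as a description without a test, and high dose vs. low dose, which was also known when the genes were picked, is given with its test and no other support.

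RNA was sequenced from 12 complex cultures of Sprague Dawley rat cortical neurons, astrocytes and oligodendrocyte precursor cells (OPCs) from commercial sources, which had matured in vitro before exposure and for which the labels name no genetic change. For 4 days they received no fentanyl (untreated; cultures A, G, M and P), 0.01 μM fentanyl, a synthetic opioid (low dose; B, H, N and Q), or 10 μM fentanyl (high dose; C, I, O and R), with 4 cultures per condition. Total counts were 12059872 to 17023909 in untreated, 12907388 to 16512387 in low dose and 15102785 to 24813893 in high dose cultures. The study calls its cultures biological replicates without saying what separates one from another. A p-value here sets a difference against the spread between these cultures. In the edgeR model that is the spread left after a factor of unwanted variation, estimated from the same cultures. As a model, a complex culture holds seeded cells of 3 kinds, and what other cells it holds was read from marker genes.

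Levels are in CPM, which here means counts per 1000000, scaled by TMM and library size. Summed neuron markers were 2490 to 3826 CPM in 11 cultures and 228 CPM in untreated culture G. G also had the highest sums of microglia (756 CPM) and endothelial markers (57.9 CPM, against 2.61 to 11.9 CPM elsewhere) and 1825 CPM of fibroblast markers. Results that rest on G are given with and without it. Astrocyte markers (1989 CPM or more), OPC markers (262 CPM or more) and oligodendrocyte markers (2914 CPM or more) were present in each culture. Consecutive letters make up 4 letter sets, each with 1 culture per condition, written ABC, GHI, MNO and PQR. No source names these letter sets as a batch or a pairing, and differences inside them are given as values.

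Complement is a cascade of secreted proteases and binding proteins that marks surfaces for removal and recruits immune cells. In the classical pathway, C1q binds its target and activates the protease C1r and through it C1s, which cleaves C4 and C2, and the fragments form a convertase that cleaves C3. In the alternative pathway, factor B (Cfb) joins a C3 fragment to make another C3 convertase and so amplifies the response, while C1 inhibitor, the product of Serping1, blocks C1r and C1s. In the brain, astrocytes and microglia make many of these proteins, and C1q and C3 are known for tagging synapses that microglia remove.

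C3, the protein on which the pathways converge, stood at 86.7 CPM in A, 702 CPM in G, 130.1 CPM in M and 40.7 CPM in P without fentanyl. At the low dose it was 126.6 CPM in B, 125 CPM in H, 382 CPM in N and 55.2 CPM in Q. At the high dose it was 244 CPM in C, 493 CPM in I, 656 CPM in O and 314 CPM in R. The 4 high dose cultures all lay above 3 of the 4 untreated cultures, and G was the highest of the 12, so that untreated and high dose cultures overlapped through G alone. The means were 239.9 ± 310.4 CPM (SD, n = 4) without fentanyl, 172 ± 144 CPM at the low dose and 427 ± 186 CPM at the high dose. Without G, the untreated mean was 85.8 ± 44.7 CPM (n = 3), and the high dose mean was 4.97 times and the low dose mean 2.01 times as high. In bulk RNA, more cells of a type that makes C3 and more C3 RNA per cell cannot be told apart.

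**Figure D1:**
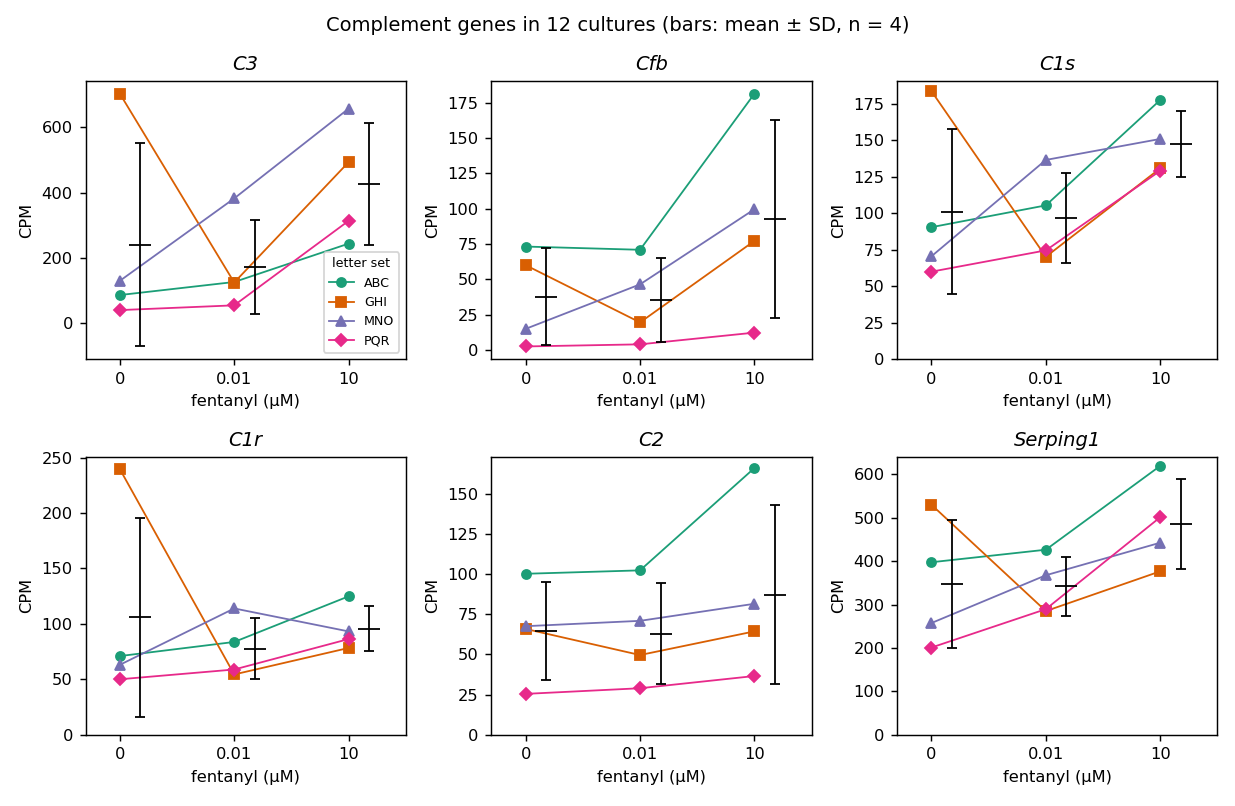
Level of each gene in CPM (linear axis) against the fentanyl dose in μM (categories, not to scale), with 1 point per culture. Lines join cultures of one letter set and black bars give the mean ± SD (n = 4); untreated culture G (orange square at 0 μM) lies highest for C3, C1s and C1r, and the PQR set lies lowest at 0 μM for each gene.

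Inside the letter sets, C3 at the high dose differed from untreated by 1.48 in ABC, -0.51 in GHI, 2.33 in MNO and 2.92 in PQR on the log2(CPM + 1) scale. Low dose vs. untreated, the differences were 0.54, -2.48, 1.55 and 0.43 in the same order. The only set with a lower value at either dose was the one that holds G. In the model over all cultures, whose factor of unwanted variation was 0.93 for G and -0.22 to 0.15 for the other cultures, the log2 fold change of C3 was 2.10 (SE 0.38) in high dose vs. untreated and 0.68 (SE 0.37) in low dose vs. untreated. With no factor the 2 values were 0.83 and -0.48, and with G left out they were 2.31 and 0.90. The low dose value was 0.34 without P and 0.28 without N.

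Between the doses, C3 was higher at the high dose in each letter set, by 0.94 in ABC, 1.97 in GHI, 0.78 in MNO and 2.48 in PQR. Of the 16 pairs of a high and a low dose culture, 14 had the higher level at the high dose, and the exceptions were C and R, which lay below N. The log2 fold change was 1.42 (SE 0.37), with an unadjusted p of 0.00299 and an adjusted p of 0.9999 over all genes tested (edgeR's quasi-likelihood test, Benjamini-Hochberg). Untreated cultures enter this fit too, and without G the value was 1.40 with an unadjusted p of 0.0279 and an adjusted p of 1 (edgeR). With no factor the log2 fold change was 1.31 with an unadjusted p of 0.146 (edgeR). An exact two-sided permutation test of the mean log2(CPM + 1) gave a difference of 1.54 and p = 0.0857, where 0.0286 is the smallest p that 4 against 4 cultures allow. C3 thus did not pass the test between doses by either method.

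Cfb, the protease of the alternative C3 convertase, had 73.2 CPM in A, 60.1 CPM in G, 14.9 CPM in M and 2.49 CPM in P among untreated cultures. In low dose cultures it had 70.9 CPM in B, 19.5 CPM in H, 46.5 CPM in N and 3.99 CPM in Q. In high dose cultures it had 181.5 CPM in C, 77.3 CPM in I, 99.7 CPM in O and 12.3 CPM in R. Its levels spanned 72.8-fold, from 30 counts in P to 3064 counts in C, and the highest culture of each letter set was the high dose one, GHI included. Means were 37.7 ± 34.3, 35.2 ± 29.6 and 92.7 ± 69.9 CPM (SD, n = 4) in untreated, low and high dose cultures.

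The high dose culture had more Cfb than the untreated one by 1.30 in ABC, 0.36 in GHI, 2.66 in MNO and 1.93 in PQR. Compared with the low dose it was higher by 1.34, 1.93, 1.08 and 1.41, a narrower range than that of C3. The low dose differed from untreated by -0.05, -1.57, 1.57 and 0.51, with no common direction. Letter sets held 74.9% of the variance of Cfb over the 12 cultures and doses 17.2%, against 39.7% and 31.3% for C3 and medians of 55.7% and 8.70% over all tested genes. The log2 fold change in high dose vs. untreated was 1.48 (SE 1.10), and it was 0.76 with P left out and 3.18 with A left out. In high dose vs. low dose it was 1.39 (SE 1.06, adjusted p = 0.9999, edgeR), 0.76 without C and 2.12 without B, and the exact permutation test gave p = 0.257 for a difference of 1.44, with 13 of 16 pairs higher at the high dose.

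C1s and C1r encode the 2 proteases that C1q activates. C1s had 90.5, 184, 70.5 and 59.96 CPM in A, G, M and P, against 105, 70.2, 137 and 74.6 CPM in B, H, N and Q. It had 178, 131, 151 and 129 CPM in C, I, O and R, the smallest spread of a condition for this gene (147 ± 22.6 CPM, n = 4, against 101 ± 56.5 in untreated and 96.7 ± 30.9 in low dose cultures). All high dose cultures lay above the untreated cultures other than G, whose mean was 73.6 ± 15.5 CPM (n = 3). High and low dose cultures overlapped only through N, which lay above I and R. The high dose was above the low dose in each set, by 0.75, 0.89, 0.14 and 0.78, and above untreated by 0.97, 1.09 and 1.09 in ABC, MNO and PQR and by -0.49 in GHI. In the model C1s differed by 0.88 (SE 0.21) in high dose vs. untreated, which was 0.54 with no factor. In high dose vs. low dose it differed by 0.62 (SE 0.20, unadjusted p = 0.0117, adjusted p = 0.9999, edgeR), and the exact permutation test gave p = 0.0857 for a difference of 0.64.

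C1r had 71.0, 239.6, 63.1 and 50.1 CPM in the untreated cultures A, G, M and P. It had 83.7, 54.4, 114 and 58.9 CPM in B, H, N and Q, and 125, 78.3, 93.2 and 86.3 CPM in C, I, O and R. G had 3.90 times the mean of the other untreated cultures, all of which lay below each high dose culture. Between doses C1r was higher at the high dose in 3 of the 4 sets (by 0.57, 0.52 and 0.54) and differed by -0.29 in MNO. The log2 fold change was 0.46 (SE 0.23) in high dose vs. untreated, where it was -0.15 with no factor and 0.59 without G. Leaving out P gave 0.22 and leaving out C gave 0.28. In high dose vs. low dose it was 0.33 (SE 0.22, adjusted p = 0.9999, edgeR), and the exact permutation p was 0.229. Without C it was 0.15 and without H 0.21.

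C2, which supplies the protease of the classical convertase and lies next to Cfb on the chromosome, followed the letter sets more than the dose. A, B and C had 100.1, 102 and 166 CPM, G, H and I 65.8, 49.6 and 64.3 CPM, M, N and O 67.5, 70.9 and 81.5 CPM, and P, Q and R 25.4, 29.0 and 36.6 CPM. The 3 cultures of PQR were the 3 lowest of the 12, whatever their dose, and 90.8% of the variance lay between sets and 5.96% between doses. High dose vs. low dose, C2 differed by 0.69 in ABC, 0.37 in GHI, 0.20 in MNO and 0.33 in PQR, differences of one sign that were small beside the distance between sets. The model gave a difference of 0.47 between the doses (log2 scale, SE 0.54, adjusted p = 0.9999, edgeR, and exact permutation p = 0.514), which became -0.07 when high dose culture C was left out. High dose vs. untreated gave 0.44 (SE 0.56), and -0.06 without P.

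Serping1, the inhibitor of C1r and C1s, had 398, 530 and 258 CPM in A, G and M and 201 CPM in P. Low dose cultures B, H, N and Q had 427, 285, 368 and 289.6 CPM. In high dose cultures C, I, O and R it was 619.9, 377, 443 and 502 CPM, and 15 of the 16 pairs were higher at the high dose, the exception being I, which lay below B. Means were 347 ± 148, 342 ± 67.8 and 485 ± 103 CPM (SD, n = 4). The high dose exceeded the low dose by 0.54, 0.40, 0.27 and 0.79 in the 4 sets and untreated by 0.64, -0.49, 0.78 and 1.31. The log2 fold change between doses was 0.50 (SE 0.25, adjusted p = 0.9999, edgeR), and the exact permutation p of 0.0571 was the lowest of the 6 genes and above 0.05. High dose vs. untreated gave 0.66 (SE 0.26), and 0.39 without P.

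Counted over the genes, 0 of the 6 passed both thresholds of the study (adjusted p below 0.05, log2 fold change beyond 0.5 up or down) at either dose against untreated or between the doses (edgeR). The background was 0% of 12271 genes in each. Over all genes, an unadjusted p under 0.05 was found for 91 at the low dose and 146 at the high dose against untreated and for 144 between the doses, where DESeq2 called 0, 3 and 1 genes and the likelihood ratio test of edgeR 0, 2 and 0. High dose vs. low dose, 5 of the 6 genes (all but C1r) were higher at the high dose in all 4 letter sets, against 11.7% of all tested genes. Not one of the 6 was without overlap between high and low dose cultures, against 0.668% of all genes that were higher without overlap. Where G is left out of the sets, 6 of 6 were higher at the high dose than without fentanyl in the 3 remaining sets, against 15.1% of all genes, and 5 of 6 (all but Cfb) were higher at the low dose, against 13.9%. All of these comparisons were in view when the genes were chosen, so nothing is read from these counts, and those with untreated also share the untreated cultures.

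**Figure D2:**
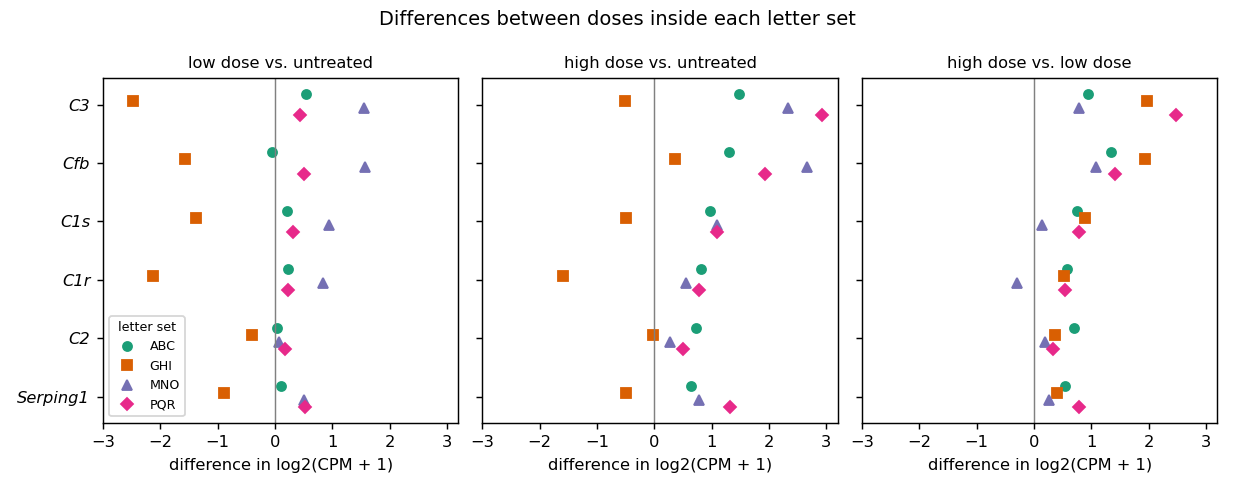
Difference between 2 conditions inside each letter set on the log2(CPM + 1) scale (horizontal axis) for each gene (rows), in 3 panels by comparison. Points of GHI (orange squares) lie below 0 in the first panel for each gene, and in the third panel the points lie above 0 except C1r in MNO, at -0.29.

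Levels of cell type markers varied along with several of these genes. Summed microglia markers (10 genes) ran from 166 to 756 CPM without fentanyl, from 166 to 731 CPM at the low dose and from 151 to 520 CPM at the high dose, with sums at or below 166 CPM in P, Q and R. Cx3cr1, the fractalkine receptor of microglia, had 1, 1 and 0 counts in P, Q and R, and Csf1r, the receptor that microglia need to survive, had 65, 86 and 102 counts there and 711 or more in each other culture. In this set with few microglia transcripts C3 was 40.7, 55.2 and 314 CPM from no fentanyl to the high dose, with the largest difference between high and low dose of the 4 sets (2.48 on the log2 scale). Serping1 also differed most in this set (0.79), while C1s (0.78), C1r (0.54) and Cfb (1.41) differed more in another set, at 0.89 in GHI, 0.57 in ABC and 1.93 in GHI. Cfb was at its lowest in P, Q and R (2.49 to 12.3 CPM), as was C2.

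**Figure D3:**
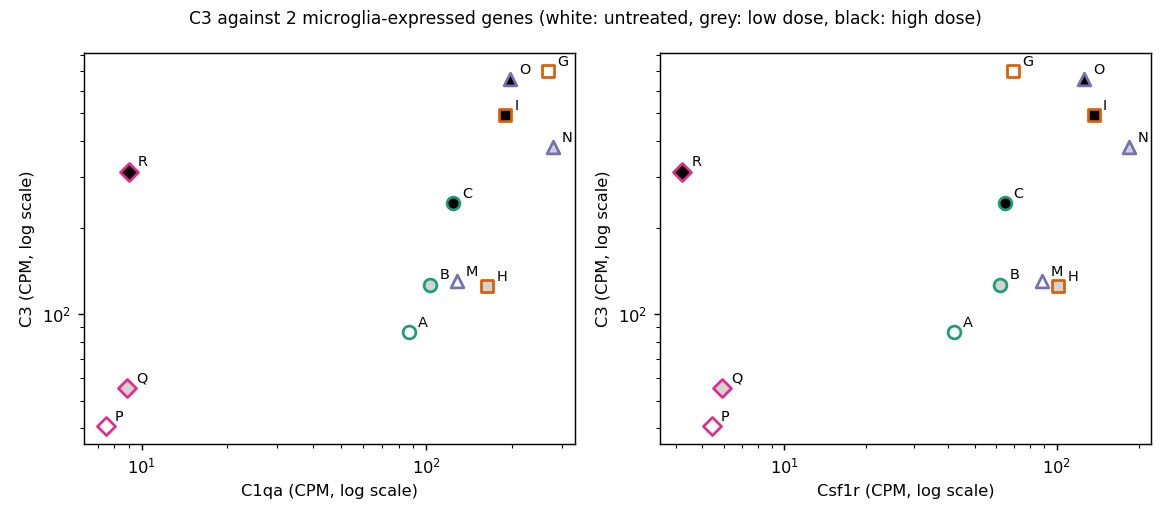
C3 against C1qa (left) and Csf1r (right), genes expressed by microglia, in CPM on log axes, with 1 labelled point per culture (white fill: untreated, grey: low dose, black: high dose; outline colour and shape: letter set). P, Q and R (diamonds) lie far to the left of the other cultures, and in them C3 spans 40.7 to 314 CPM.

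Over the 12 cultures, C3 and the mean log2(CPM + 1) of the microglia markers had r = 0.70 (0.66 over 11 cultures without G), and Cfb and that mean r = 0.75 (0.75 without G). These are descriptions: the points share letter sets, and P, Q and R lie apart from the rest. With the neuron mean Cfb had r = -0.001 over the 12 cultures and 0.81 only without G. With the astrocyte mean it had r = -0.70 (-0.83 without G). For C1r, the endothelial mean gave r = 0.81 (0.46 without G) and the fibroblast mean 0.79 (0.44 without G). Summed fibroblast markers (7 genes) ran from 65.8 to 1825 CPM without fentanyl, 77.5 to 2896 CPM at the low dose and 66.4 to 279 CPM at the high dose, with N the highest. N was also the low dose culture with the highest C3, C1s and C1r. Summed astrocyte markers (8 genes) were 3018 to 9181, 2976 to 10689 and 1989 to 7634 CPM, and C3 and their mean had r = -0.41 (-0.68 without G). The part of these cell types in the results was not tested.

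Among themselves the 6 genes had Pearson correlations of 0.40 to 0.92 over the 12 cultures (median 0.75 of 15 pairs), given as a description, since the cultures share letter sets and the scaling. The highest was between Cfb and C2 and the lowest between C3 and C2. Once each gene's mean in its letter set was taken off, the correlations were 0.63 to 0.96 (median 0.86), and C3 had 0.96 with C1s, 0.96 with Serping1 and 0.94 with Cfb. The levels of C3 and Cfb differed from set to set. In GHI, C3 was highest in G and Cfb highest in I (high dose vs. untreated -0.51 and 0.36). The 6 genes were picked with differences between doses in view, so nothing is read from these correlations.

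Of 10342 genes with a mean of at least 5 CPM, those whose pattern over the 12 cultures was most like that of C3 were Hsp90b1 (r = 0.93), Angptl4 (0.93) and Hspa5 (0.92). Hsp90b1 and Hspa5 encode chaperones of the endoplasmic reticulum, and Angptl4 a secreted inhibitor of lipoprotein lipase. For Cfb they were Gsr, RT1-CE15 and RT1-A1 (0.95, 0.94 and 0.94). For C1s they were Serping1, Angptl4 and Mt1a (0.91, 0.91 and 0.90), and for Serping1 they were C1s, Tmsb10 and Plekha4 (0.91, 0.87 and 0.87). C1r was most like Plp2, Osbpl11 and Myl12a (0.97, 0.95 and 0.95), and C2 most like RGD1309362, Rpusd2 and Atad2 (0.96, 0.95 and 0.94). With letter set means taken off, the genes most like C3 were Lcn2 (0.97), a siderophore-binding protein secreted by reactive astrocytes, Angptl4 (0.97), C1s (0.96), Chi3l1 (0.96) and Mt1a (0.96). Leaving G out changed the nearest genes of C3 over the cultures to Tnfaip2 (0.95), Ntng1 (0.94) and Tlr2 (0.93). C1r and C1s were then nearest each other (0.94), while Serping1 stayed nearest C1s (0.90). Cfb was then nearest RT1-A3 (0.98) and C2 nearest Psmb9 (0.98).

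The ratio of the counts of 2 genes in one culture does not depend on the scaling. This was looked at for 4 pairs after the levels had been seen and is given without a test. C1s and C1r lie next to each other with no coding gene between them in RefSeq's rat assembly GRCr8. The ratio of C1s to C1r was 1.27 in A, 0.77 in G, 1.12 in M and 1.20 in P. It was 1.26, 1.29, 1.20 and 1.27 in B, H, N and Q and 1.42, 1.67, 1.62 and 1.496 in C, I, O and R. Each high dose culture thus had more C1s relative to C1r than any other culture, and G had the least. How often other pairs of genes separate in this way was not looked at.

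For Cfb over its neighbour C2 the ratios were 0.73, 0.91, 0.22 and 0.098 in A, G, M and P. They were 0.69, 0.39, 0.66 and 0.14 in B, H, N and Q and 1.09, 1.20, 1.22 and 0.34 in C, I, O and R. In each letter set the high dose culture had the highest ratio, while R lay below A and G. In the remaining pairs the conditions overlapped. C1s to Serping1 was 0.23 to 0.35 in untreated, 0.25 to 0.37 in low dose and 0.26 to 0.35 in high dose cultures. C3 to Serping1 was 0.20 to 1.32, 0.19 to 1.04 and 0.39 to 1.48 in the same order.

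**Figure D4:**
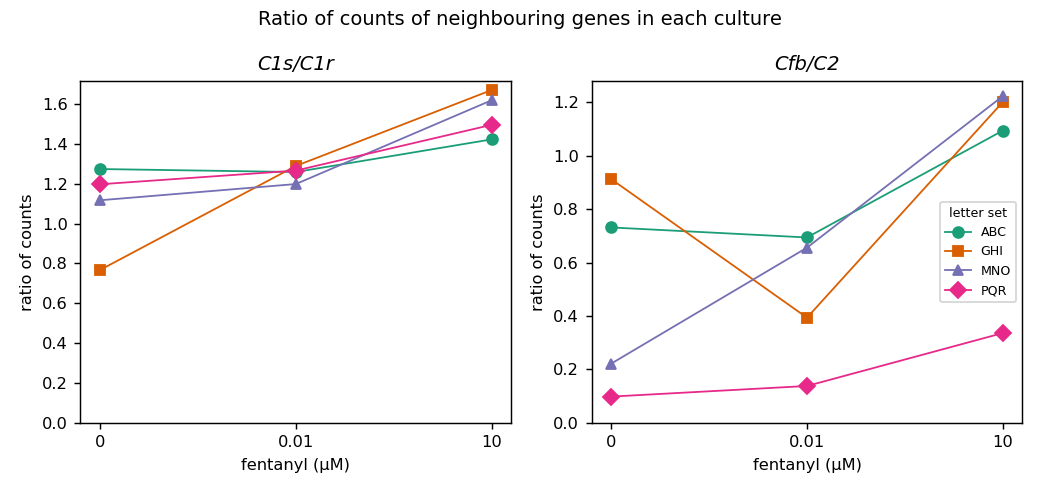
Ratio of counts of C1s to C1r (left) and of Cfb to C2 (right) in each culture (linear axis from 0) against the fentanyl dose in μM (categories, not to scale), with lines joining cultures of one letter set. High dose cultures lie at 1.42 to 1.67 for C1s to C1r, above all other cultures, and at 0.34 to 1.22 for Cfb to C2.

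The rest of the pathway was read from a list of 53 complement symbols in 6 roles, of which 47 were in the table and 34 were tested. None of the 34 was called in a comparison (edgeR). An unadjusted p under 0.05 was found for 0 at the low dose and 4 at the high dose against untreated, and for 3 between the doses. Over all 12271 genes the numbers were 91, 146 and 144. Among the 28 tested genes besides the 6, which were picked with these results in view, they were 0, 1 and 1. Of the 28 tested genes besides the 6, 13 were above 0 and 15 below 0 in high dose vs. low dose, with a median log2 fold change of -0.03, and 0 of 28 were higher in all 4 letter sets. In high dose vs. untreated 22 of 28 were above 0 with a median of 0.43, and in low dose vs. untreated 20 of 28 with a median of 0.52. Of all genes, 47.6% were above 0 between the doses, 50.8% in high dose vs. untreated and 53.4% in low dose vs. untreated. The median of all 34 in high dose vs. untreated was 0.53, but 0.12 with no factor and 0.21 with a block by letter sets. In low dose vs. untreated it was 0.34, but -0.03 with no factor and 0.03 with that block. The medians of all 12271 genes were -0.01, 0.0031 and 0.01 in these comparisons. Susd4, an inhibitor of complement on cell surfaces, was the only one of the 28 with an unadjusted p under 0.05, at 0.31 on the log2 scale (SE 0.13, adjusted p = 0.9999, edgeR) between the doses. It had 12.7 CPM in G and 64.0 to 118 CPM in the other cultures.

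**Figure D5:**
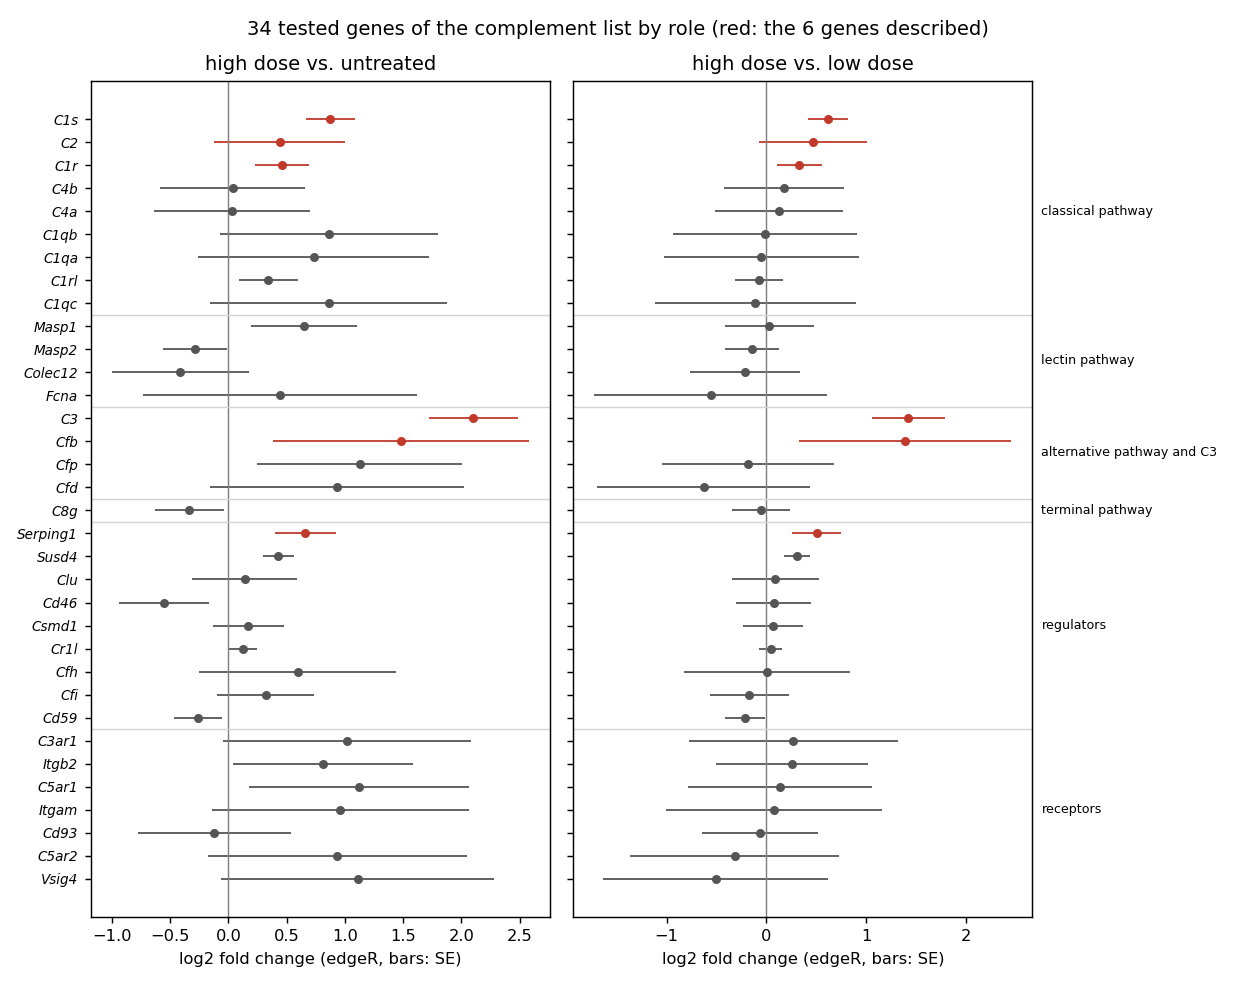
Log2 fold change (edgeR, bars: SE derived from the test statistic) of the 34 tested complement genes, grouped by role, in high dose vs. untreated (left) and high dose vs. low dose (right). The 6 genes described lie to the right of 0 in both panels, and the other 28 lie on both sides of 0 in the right panel, between -0.63 and 0.31.

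Upstream of C1r and C1s stands C1q, which has 3 chains. C1qa was 7.48, 8.87 and 9.01 CPM in P, Q and R and 87.2 to 279 CPM in the other cultures, and C1qb and C1qc were likewise lowest in P, Q and R. Their log2 fold changes in high dose vs. low dose were -0.05 (SE 0.98), -0.01 (SE 0.93) and -0.11 (SE 1.01). C4a and C4b, which encode C4, a target of C1s, are near-identical copies whose reads may have been split between them, and their values of 0.13 (SE 0.64) and 0.18 (SE 0.60) are uncertain. In the lectin pathway, a parallel route to the same convertase, the protease gene Masp1 had 87.5 ± 56.1, 140.4 ± 53.3 and 141 ± 52.2 CPM (SD, n = 4). The untreated mean of Masp1 was low through G, with 21.4 CPM in G and 61.3 to 142 CPM in A, M and P. The lectin genes Fcna and Colec12 had -0.56 (SE 1.17) and -0.22 (SE 0.55) in high dose vs. low dose. Colec12 had 49.5 CPM in G and 0.25 to 0.77 CPM in the other cultures, so its place in the list rests on G.

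In the alternative pathway, Cfp, the stabiliser of the convertase, and Cfd, the protease that cleaves factor B, had log2 fold changes of -0.19 (SE 0.86) and -0.63 (SE 1.07) in high dose vs. low dose, beside 1.42 for C3 and 1.39 for Cfb. Of the terminal pathway, C8g alone was tested (-0.06, SE 0.29), C8a, C8b and C9 had at most 6 counts in a culture, and C6 had up to 100 counts, in G (6.49 CPM). Among the other regulators, Clu, which binds terminal complexes, differed by 0.09 (SE 0.43) between doses. Cd59, which blocks the membrane attack complex, was 109 ± 18.1, 105 ± 20.1 and 91.1 ± 21.8 CPM and was lower in the high dose culture of all 4 letter sets, at -0.21 on the log2 scale (SE 0.20, adjusted p = 0.9999, edgeR). Among receptors, Itgam and Itgb2, which form the C3 fragment receptor of microglia, had 0.08 (SE 1.08) and 0.26 (SE 0.76), with 0.83, 1.38 and 1.24 CPM of Itgam in P, Q and R. Vsig4, another receptor for C3 fragments, had -0.51 (SE 1.13).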

How the data were processed

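Reads were aligned by the authors to build rn6 of the rat genome with STAR, and the deposited values are their featureCounts counts per gene symbol, with no normalization, from poly(A) libraries made with a kit that does not mark strand. From these, counts were scaled by TMM (edgeR 4.0.16, R 4.3.3), genes were kept by filterByExpr, and 1 RUVs factor, which held 41.0% of the variation within conditions, was estimated from the replicates of each condition, since the study names RUVseq without settings. All 12 cultures were fitted in one model with the quasi-likelihood test of edgeR and Benjamini-Hochberg adjustment over 12271 genes, with the study's thresholds for a call. Each SE beside an edgeR log2 fold change is that value, without sign, divided by the square root of the test's F statistic. In comparisons with untreated cultures the SE is therefore a description too. Exact two-sided permutation tests used the 70 arrangements of 4 high and 4 low dose cultures. The members and lists were chosen with earlier results of these data known. Named are the 6 genes, the up to 3 tested complement genes per role with the highest mean, those with an unadjusted p under 0.05, and the genes most alike in pattern. C4a, C4b, Cfd, C6, C8a, C8b, C9 and the genes most like the 6 genes without G were named after their values were seen. Sequences and gene lengths were not used here, so levels are not compared between genes. DESeq2 1.42.0 and the other alternatives are given at the end.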

Additional observations from a re-analysis of the deposited data

How the results depend on the processing

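Of 21 alternatives (20 planned), 12 left out 1 culture each. Genes called in low dose vs. untreated numbered 0 in all 21. For the high dose against untreated and against the low dose, 0 genes each became 1 and 1 with 2 RUVs factors, 3 and 1 with DESeq2, 2 and 0 with the likelihood ratio test, and 0 and 0 with a replicate block by letter sets. With that block and G left out, 15 and 14 were called, and with G, H and I left out, which was chosen after seeing the data, 2 and 5. The cause was not tested. Cfb was called with 2 RUVs factors between the doses (log2 fold change 1.37, adjusted p = 0.0301, edgeR), the only call there among 126 values for the 6 genes. This comparison too was known when the genes were picked, so the call is no evidence. In high dose vs. untreated, on which the genes were chosen and where a call is no evidence, the genes called included Cfb with 2 RUVs factors, C3 with DESeq2 and the likelihood ratio test, and C3, Cfb, C1s and Serping1 with the block without G. Of 126 values per comparison for the 6 genes, 1 changed sign in high dose vs. low dose, 3 in high dose vs. untreated and 21 in low dose vs. untreated. The first was C2, whose log2 fold change ran from -0.0656 (without C) to 0.82 (without B) as cultures were left out. C3 was at 0.83 in high dose vs. untreated with no factor. DESeq2 size factors moved no level by more than 1.01 times, and an offset of 0.1 left the permutation p-values as they were. At 12059872 to 24813893 counts a culture, the lowest count of the 6 genes was 30 (Cfb in P), where counting error weighs most.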
